A study of Homo sapiens with 2 samples.

Results

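Accessible chromatin at the genes of the proteasome was examined in CAMA-1, an estrogen receptor-positive luminal breast cancer cell line of epithelial type, grown as an adherent culture; the labels name no treatment. The genes were chosen by symbol: GENCODE release 44 has 40 protein-coding genes whose symbol is PSMA, PSMB, PSMC or PSMD followed by a digit, of 20033 protein-coding genes on hg38. Of these, 34 are standard subunits or their assembly chaperones, made in nearly every cell, 5 are subunits of immune (PSMB8, PSMB9, PSMB10), thymic (PSMB11) or testis (PSMA8) proteasomes, and 1, PSMC3IP, has a matching symbol but encodes a recombination factor and is no subunit. ATAC-seq, an assay of open DNA by the adapters that the enzyme Tn5 leaves in it, had been run on nuclei of 50000 cells in each of 2 biological replicates, which form a single condition. The family was singled out with its peak values already known, so the values below are a description, with no test over the genes.

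The proteasome degrades proteins that carry a ubiquitin chain. Its core particle is a barrel of alpha rings (PSMA genes), which gate the entrance, around beta rings (PSMB genes), whose subunits PSMB5, PSMB6 and PSMB7 hold the active sites. A regulatory particle of ATPases (PSMC genes) and non-ATPase subunits (PSMD genes) binds the barrel, recognises the ubiquitin chain and unfolds the protein, while the chaperones PSMD5, PSMD9 and PSMD10 help to assemble the ATPase ring and leave it again. Interferon-gamma induces PSMB8, PSMB9 and PSMB10, which replace PSMB5, PSMB6 and PSMB7 and change the peptides made for antigen presentation. PSMB11 takes the place of PSMB5 in the cortex of the thymus, and PSMA8 that of PSMA7 in male germ cells.

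Replicate 1 had 245736 peaks and replicate 2 had 259745. The strength of a peak was its fold enrichment, the highest pileup of reads in the peak as a ratio to the peak caller's background, from which the height in stacked reads was recovered. Total reads per library are not given by the peak lists, so a height has a 95% exact Poisson interval that covers counting error only, and the smallest height listed was 11 in both replicates. A TSS peak is the strongest peak within 1 kb of any annotated transcription start site (TSS) of a gene, and the percentile of a gene is its place among all protein-coding genes with a TSS peak in that replicate. As a check of the cell type, 7 of 7 luminal epithelial markers had a peak over the canonical TSS in both replicates, beside 65.0% of all protein-coding genes. None of the 3 fibroblast markers had a peak there, although all 3 had one within 1 kb. Within 1 kb the percentiles of these lists overlapped, from 29.7 to 95.1 for luminal and 17.0 to 66.2 for fibroblast markers. The measure at the canonical TSS was chosen after seeing the data, so the check is a weak one. Of the blood markers, PTPRC, CD3E, CD79A and SPI1 had no peak within 1 kb in either replicate, and CD14 had one over its canonical TSS in both.

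All 34 standard genes had a TSS peak in both replicates, beside 79.3% of all protein-coding genes (15890 of 20033). The same 34 of 34 had a peak over a narrow window that ends 25 bp after a TSS, where 72.8% of all genes had one, and over the TSS of the Ensembl canonical transcript, where 65.0% had one. Presence of a peak therefore did not vary among the standard genes under these 3 definitions, and the nearest peak overlapped a TSS in each of the 34. The genes PSMB11 and PSMA8 had no TSS peak in either replicate, and the nearest peak of PSMB11 was 4906 bp away in replicate 1 and 4887 bp in replicate 2. PSMC3IP, apart from the family, had a fold enrichment of 54.3 in replicate 1 and 51.3 in replicate 2.

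The strength of the peaks, unlike their presence, spread widely. The median fold enrichment of the 34 standard genes was 61.2 in replicate 1 and 60.8 in replicate 2, where the median of all protein-coding genes with a TSS peak was 51.1 and 52.6. The median percentile of the standard genes was 59.6 in replicate 1 and 57.8 in replicate 2. Of the 34, 21 were at or above percentile 50 in both replicates, against 48.3% of all genes with a TSS peak in both, and 5 were at or above percentile 90, against 9.14%. Above the upper limit in both lay PSMA2, with percentiles of 93.7 and 94.4. PSMB3, with 93.0 and 89.2, was above it in replicate 1 and just below it in replicate 2. The mean of both replicates ranged from 14.9 for PSMB6 to 349.8 for PSMA5 within the family, a range that the role in the complex did not divide: the medians were 72.7 for the 7 alpha ring genes, 56.3 for the 7 beta ring genes, 54.8 for the 6 ATPase genes, 64.2 for the 11 non-ATPase genes and 108.8 for the 3 chaperones, and the ranges of these groups overlapped.

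**Figure D1:**
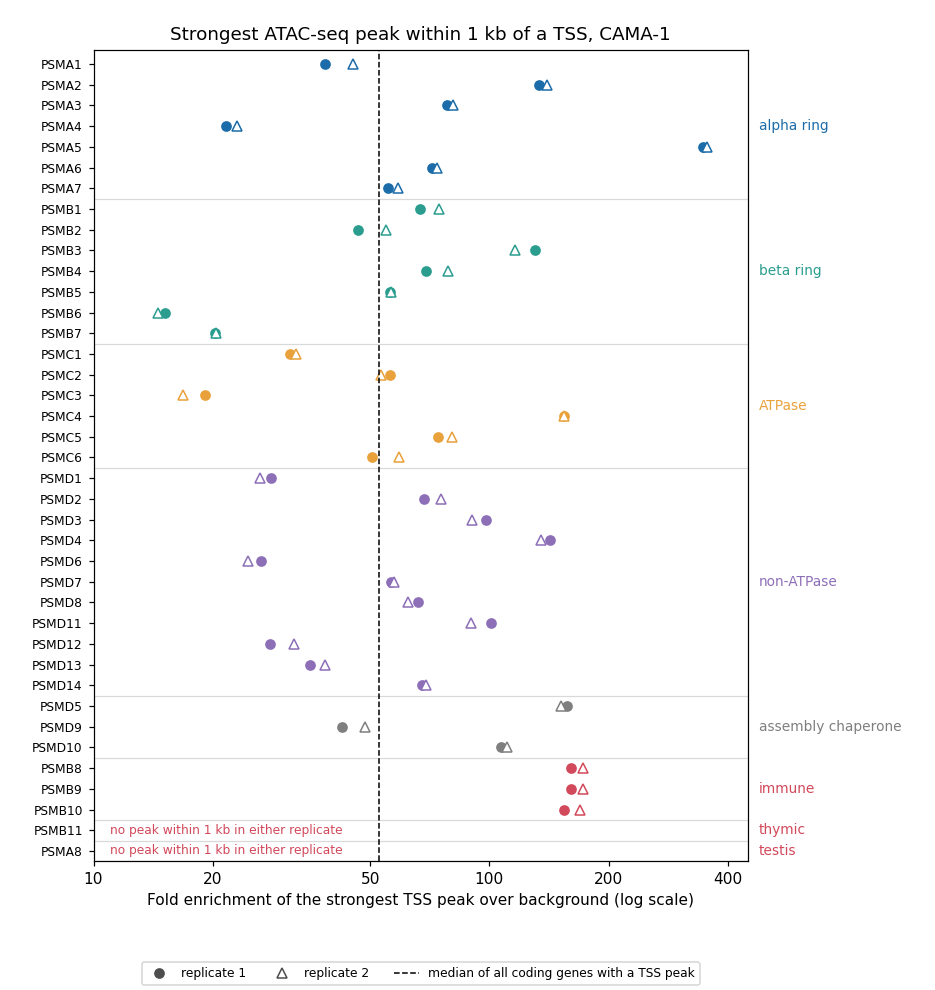
Fold enrichment of the strongest peak within 1 kb of a TSS (horizontal log axis, ratio to background) for each gene of the proteasome (rows, coloured by role) in replicate 1 (filled circles) and replicate 2 (open triangles). The dashed line marks the median of all coding genes with a TSS peak, 52.6, and each role spans it except the immune genes, which all lie at 154.2 or above by this measure.

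The replicates differed little at these genes. The median absolute log2 ratio between the replicates was 0.09 over the standard genes and 0.11 over all genes with a TSS peak in both. The largest ratios of replicate 2 over replicate 1 were 0.24 for PSMB2, 0.24 for PSMA1 and 0.23 for PSMC6, on the log2 scale. PSMB2, a beta ring subunit without an active site, rested on 201 stacked reads (95% interval 174 to 231) in replicate 1 and 247 (217 to 280) in replicate 2, so that even here the intervals met. Of the 34 genes, 23 were higher in replicate 2, as were 59.7% of all genes.

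**Figure D2:**
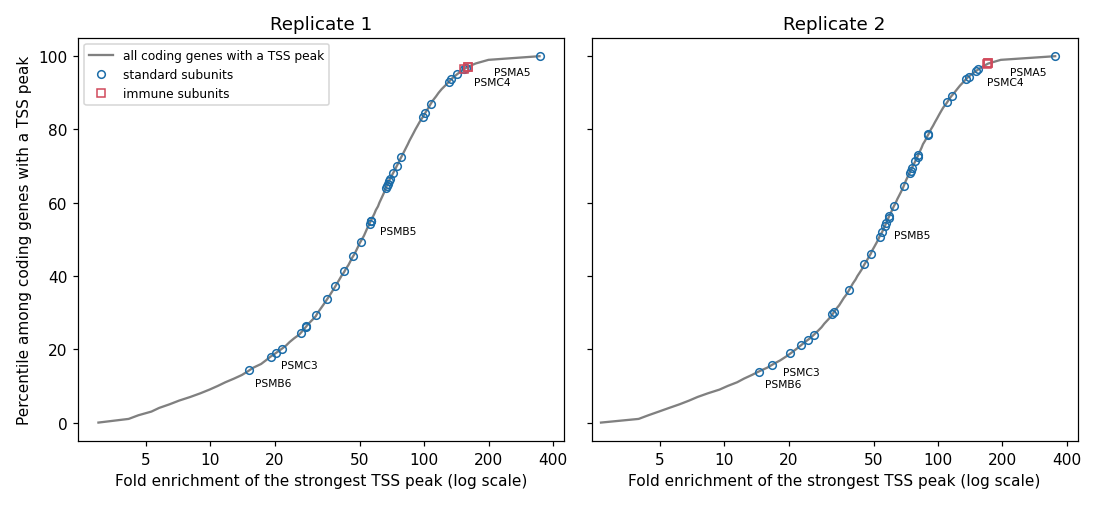
Percentile of a gene among all coding genes with a TSS peak (vertical axis) against the fold enrichment of its strongest TSS peak (horizontal log axis) in each replicate. The grey line is all coding genes, blue circles are the 34 standard genes, spread from PSMB6 to PSMA5, and red squares are the 3 immune genes, above percentile 96 in both replicates.

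Among the alpha ring genes, PSMA5, a structural subunit of the ring, had the strongest TSS peak of any protein-coding gene in both replicates. Its fold enrichment was 346.1 in replicate 1 and 353.6 in replicate 2 (mean 349.8 ± 5.32, SD, n = 2), from heights of 1503 (95% interval 1428 to 1581) and 1598 (1521 to 1678) stacked reads. The intervals overlap. The value was 6.11 and 6.25 times the median of the genes with a TSS peak on chromosome 1, which was itself 56.6 in both replicates, and by that measure PSMA5 ranked 6 and 4 among all genes. The peak spanned chr1:109425798-109427104 in replicate 1, over the canonical TSS, and a separate peak that overlaps the 3′ end of the gene and lies mostly beyond it had a fold enrichment of 132.3 and 130.0. PSMA2, also of the ring, had 133.2 and 139.5, in a peak that also lies within 1 kb of the start of MRPL32. PSMA4 was the lowest of the ring with a mean of 22.3 ± 0.967 (SD, n = 2), from 93 and 103 stacked reads, and the other 4 ranged from 38.4 (PSMA1, replicate 1) to 80.9 (PSMA3, replicate 2).

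The 3 catalytic beta genes reached no higher than percentile 54.9. PSMB5, whose product cuts after hydrophobic residues, had 56.1 in replicate 1 and 56.4 in replicate 2, from 243 and 254 stacked reads. PSMB7, which cuts after basic residues, had 20.2 and 20.3, from 87 and 91. PSMB6, which cuts after acidic residues, had 15.2 and 14.6, from 65 stacked reads in each replicate (95% interval 50.2 to 82.8), the lowest of the standard genes. The peak of PSMB6 was also narrow, 334 bp in replicate 1 and 325 bp in replicate 2, and the intervals of PSMB5 did not meet those of PSMB6 or PSMB7 in either replicate. Among the other beta genes, PSMB3 was the strongest with 130.5 and 116.1. The strongest peak of PSMB1, with 66.7 and 74.5, lay 361 to 1449 bp upstream in replicate 1, at the start of TBP, and the peak over the TSS of PSMB1 itself had 28.3 in both replicates.

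In the regulatory particle, the ATPase gene PSMC4 had 154.2 in replicate 1 and 154.4 in replicate 2, from 669 and 697 stacked reads. PSMC3, another ATPase of the ring, had 19.1 and 16.8, from 82 (95% interval 65.2 to 102) and 75 (59.0 to 94.0). The peaks of these ATPase genes differed 8.63-fold (± 0.786, SD, n = 2), and the intervals of the pair were far apart in each replicate. Ranked by fold enrichment over the median of its chromosome, PSMC4 had a mean percentile of 97.7 and PSMC3 one of 20.7. For PSMC2, the strongest peak (56.1 and 53.3) lay at an alternative start shared with DNAJC2, and the peak over its canonical TSS had 42.8 and 36.9. Among the non-ATPase genes, PSMD4, a receptor for ubiquitin chains, was the strongest with 142.4 and 135.1, and PSMD6 the weakest with 26.5 and 24.5. The other 9 had means between 27.2 (PSMD1) and 95.3 (PSMD11). Of the chaperones, PSMD5 had 156.7 and 151.3, PSMD10 had 107.0 and 110.6, and PSMD9 had 42.3 and 48.4.

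The 300 bases around the start of PSMA5 and PSMC3, at the upper and lower ends of the family, are shown with PSMB5. They run from 250 bases before to 50 bases after the start, 5′ to 3′ in the direction of transcription, with exact motif matches in capitals, and come from RefSeq on GRCh38.p14 (PSMA5, chr1:109426399-109426698, minus strand; PSMC3, chr11:47426390-47426689, minus strand; PSMB5, chr14:23034851-23035150, minus strand).
PSMA5: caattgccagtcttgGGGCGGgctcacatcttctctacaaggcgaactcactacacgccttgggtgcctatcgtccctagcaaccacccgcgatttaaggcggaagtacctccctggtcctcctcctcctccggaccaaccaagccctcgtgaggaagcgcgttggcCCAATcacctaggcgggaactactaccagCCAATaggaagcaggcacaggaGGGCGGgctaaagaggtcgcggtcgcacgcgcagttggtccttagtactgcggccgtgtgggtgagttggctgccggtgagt
PSMC3: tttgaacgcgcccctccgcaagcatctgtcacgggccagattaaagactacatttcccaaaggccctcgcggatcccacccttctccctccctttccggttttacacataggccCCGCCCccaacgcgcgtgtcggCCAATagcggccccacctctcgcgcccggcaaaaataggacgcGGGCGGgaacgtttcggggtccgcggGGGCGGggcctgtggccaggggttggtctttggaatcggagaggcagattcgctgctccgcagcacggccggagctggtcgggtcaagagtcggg
PSMB5: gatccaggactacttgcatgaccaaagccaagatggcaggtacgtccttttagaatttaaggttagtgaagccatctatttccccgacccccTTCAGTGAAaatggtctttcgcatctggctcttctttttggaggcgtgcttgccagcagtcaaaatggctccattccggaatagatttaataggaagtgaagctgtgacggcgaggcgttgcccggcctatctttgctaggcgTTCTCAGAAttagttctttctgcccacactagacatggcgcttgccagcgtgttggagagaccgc

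PSMA5 held 2 matches to the CCAAT box (CCAAT, bound by NF-Y) and 2 to the GC box (GGGCGG, bound by SP1), and PSMC3, whose peak was the weakest after that of PSMB6, held 1 and 3. PSMB5 held neither, but 2 matches to TTCNNNGAA, the GAS element bound by STAT factors. GC content was 60.7% for PSMA5, 65.0% for PSMC3 and 50.0% for PSMB5.

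RefSeq promoters matched 29 of the 34 standard genes (not PSMA7, PSMB1, PSMB6, PSMB7 and PSMD4), and 15343 promoters of all protein-coding genes served as background. Matches on either strand to CCGGAAG, the letters that ETS factors bind, were in 11 of the 29 (37.9%) and in 14.8% of all promoters. The 11 were PSMA6, PSMC1, PSMC2, PSMC6, PSMD6, PSMD7, PSMD8, PSMD12, PSMD13, PSMD14 and PSMD9. The GC box was in 65.5%, beside 61.8% of all promoters, and the CCAAT box in 48.3%, beside 36.6%. TGACNNNGC, the antioxidant response element that NFE2L1 and NFE2L2 bind, was in 24.1%, beside 14.3%, and the GAS letters were in 13.8%, beside 6.69%. The remaining motifs were GCATGCGC (NRF1; 6.90%, beside 4.38%), ATGGCGGC (YY1; 3.45%, beside 4.84%), CACGTG (E-box; 6.90%, beside 8.86%), GAAANNGAA (IRF; 6.90%, beside 6.86%) and TGACGTCA (CRE; 0 of 29, beside 2.76%). These shares rest on 0 to 19 promoters each and have no test. The median GC content was 60.7% and the median ratio of observed to expected CpG 0.781, and over all promoters 63.7% and 0.783.

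**Figure D3:**
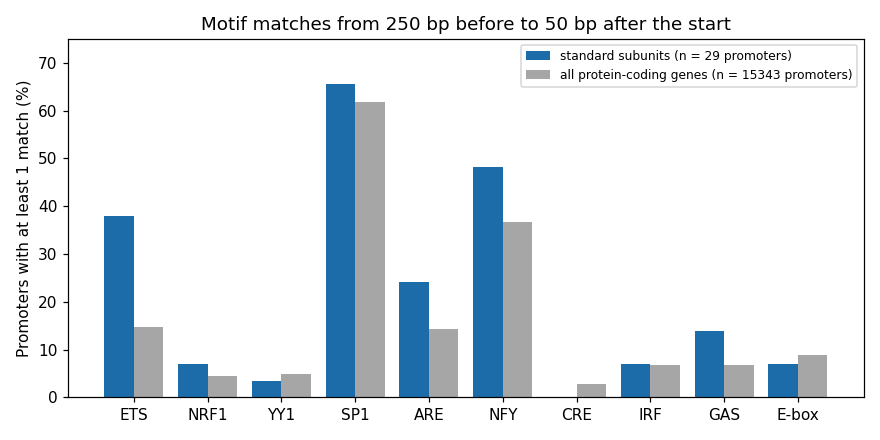
Share of promoters with at least 1 exact match on either strand (vertical axis, percent) for 10 motifs (horizontal axis), in 29 promoters of standard proteasome genes (blue bars) and 15343 promoters of all protein-coding genes (grey bars). ETS letters were in 37.9% and 14.8%, and the GC box in 65.5% and 61.8%.

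The 5 genes of immune, thymic and testis proteasomes fell into 3 with strong peaks and 2 with none. PSMB8 had a fold enrichment of 160.6 in replicate 1 and 172.3 in replicate 2, from 697 (95% interval 646 to 751) and 778 (724 to 835) stacked reads, at chr6:32843916-32845112 in replicate 1, which was percentile 97.2 and 98.0. Over PSMB5, the subunit it replaces, PSMB8 was higher 2.96-fold (± 0.137, SD, n = 2), and their intervals did not meet in either replicate. By the rule of any annotated TSS, PSMB9 takes the same peak, since starts of PSMB9 lie 89 and 789 bp from the canonical TSS of PSMB8 on the opposite strand. The long noncoding RNA gene PSMB8-AS1 also starts in this peak, with a canonical TSS 39 bp from that of PSMB8. At the canonical TSS of PSMB9, 10145 bp from that of PSMB8, the peak had 86.1 and 96.0, from 373 (336 to 413) and 433 (393 to 476) stacked reads. That peak, chr6:32852917-32854958 in replicate 1, also covers the start of TAP1, a subunit of the transporter that carries peptides into the endoplasmic reticulum. With that peak, PSMB9 was 6.12-fold (± 0.643) above PSMB6, the subunit it replaces.

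**Figure D4:**
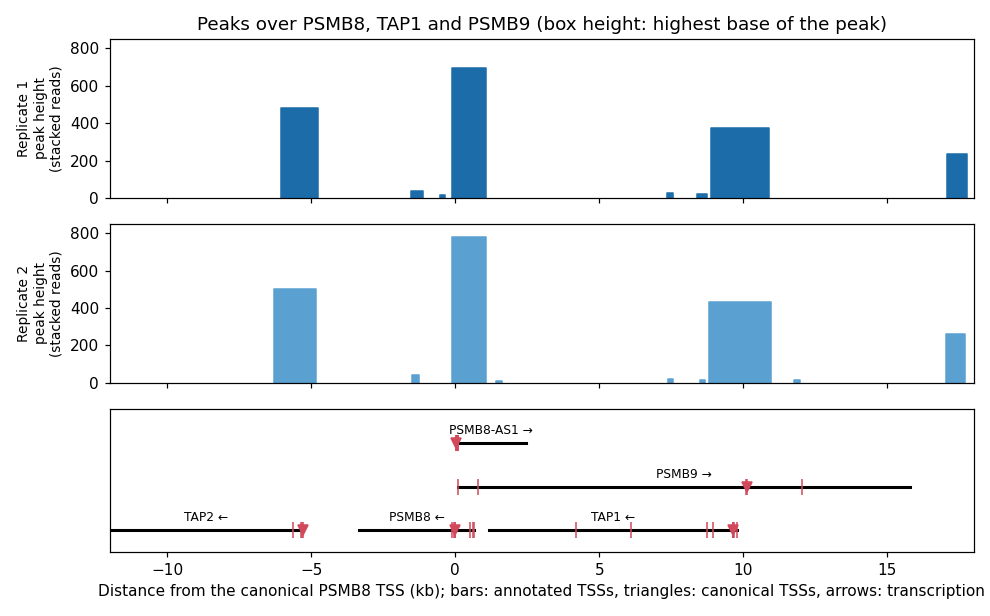
Peaks around PSMB8, TAP1 and PSMB9 in replicate 1 (top) and replicate 2 (middle), drawn as boxes whose width is the peak and whose height is its highest pileup in stacked reads, against the distance from the canonical PSMB8 TSS in kb, with the genes below. The tallest box, 697 and 778 reads, lies over starts of PSMB8 and PSMB8-AS1 and alternative starts of PSMB9. The box of 373 and 433 reads lies over TAP1 and the canonical start of PSMB9.

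PSMB10 lies on chromosome 16, apart from both. In replicate 1 its strongest peak, chr16:67934902-67936395, lay inside the gene, 455 to 1948 bp downstream of the canonical TSS. It had a fold enrichment of 154.2 from 669 stacked reads, and a separate peak over the canonical TSS had 18.6 from 80. In replicate 2 a single merged peak, chr16:67935031-67937485, covered both with 168.9 from 763. The peak lists give no summits, so the 168.9 cannot be placed at the canonical TSS. Compared by the strongest peak, PSMB10 was 7.96-fold (± 0.488, SD, n = 2) above PSMB7, but by the peak over the canonical TSS the ratio was 0.920 in replicate 1 and 8.30 in replicate 2. The strong peak of replicate 1 is also at an annotated alternative start of PSMB10, with its midpoint 146.5 bp downstream of that start. The strong peak also holds starts of a coding gene listed without a symbol. In the extents over the canonical TSS, the merging in replicate 2 makes PSMB10 the peak that reaches farthest downstream.

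**Figure D5:**
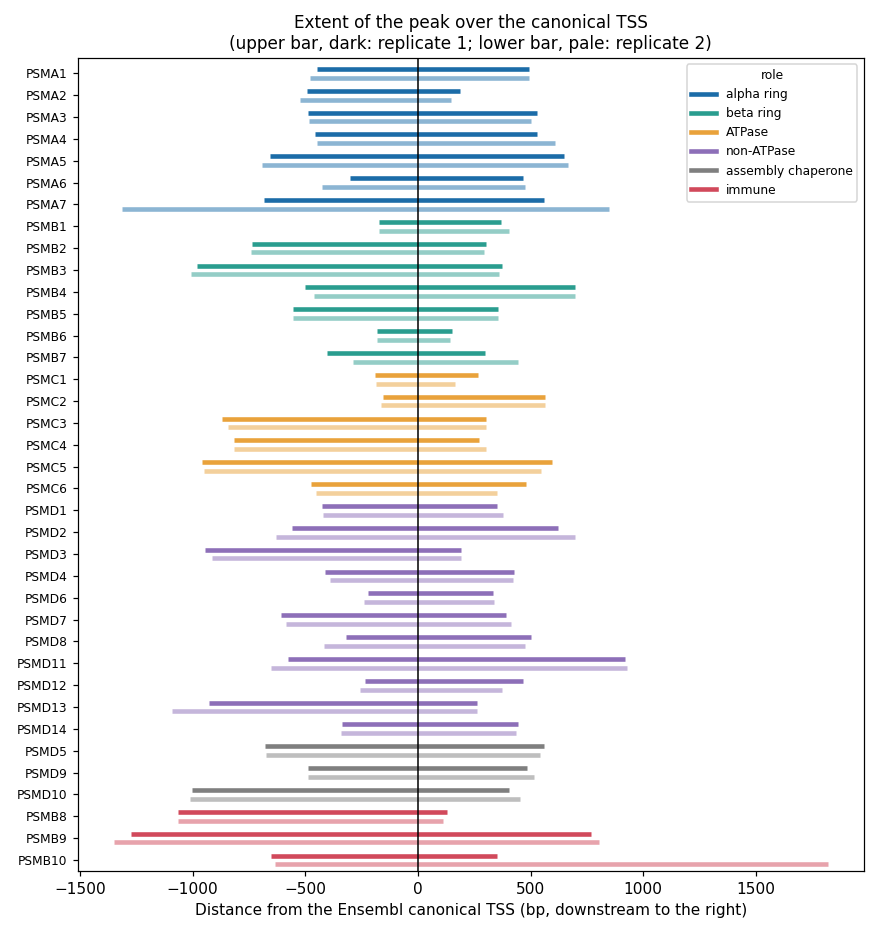
Extent of the peak over the Ensembl canonical TSS (horizontal axis, distance in bp, downstream to the right) for the standard and immune genes (rows, coloured by role), with replicate 1 as the upper, dark bar and replicate 2 as the lower, pale bar. Every bar spans the TSS, PSMB6 has the shortest, and PSMB10 in replicate 2 reaches 1819 bp downstream.

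The promoters of the 3 immune genes are shown for comparison with PSMB5, in the same frame and with capitals for the same motifs (PSMB8, chr6:32843998-32844297, minus strand; PSMB9, chr6:32853942-32854241, plus strand; PSMB10, chr16:67936801-67937100, minus strand).
PSMB8: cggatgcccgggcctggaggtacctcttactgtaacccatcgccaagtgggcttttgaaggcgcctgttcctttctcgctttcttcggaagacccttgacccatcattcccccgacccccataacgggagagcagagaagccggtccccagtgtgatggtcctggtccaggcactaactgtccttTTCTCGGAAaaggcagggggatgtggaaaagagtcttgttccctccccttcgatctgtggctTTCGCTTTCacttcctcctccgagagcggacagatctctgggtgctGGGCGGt
PSMB9: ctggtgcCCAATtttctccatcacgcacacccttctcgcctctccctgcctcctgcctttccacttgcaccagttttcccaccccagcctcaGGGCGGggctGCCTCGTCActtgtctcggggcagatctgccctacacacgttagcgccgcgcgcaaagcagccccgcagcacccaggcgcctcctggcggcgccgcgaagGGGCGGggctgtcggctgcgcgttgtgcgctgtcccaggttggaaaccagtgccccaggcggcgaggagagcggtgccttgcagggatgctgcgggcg
PSMB10: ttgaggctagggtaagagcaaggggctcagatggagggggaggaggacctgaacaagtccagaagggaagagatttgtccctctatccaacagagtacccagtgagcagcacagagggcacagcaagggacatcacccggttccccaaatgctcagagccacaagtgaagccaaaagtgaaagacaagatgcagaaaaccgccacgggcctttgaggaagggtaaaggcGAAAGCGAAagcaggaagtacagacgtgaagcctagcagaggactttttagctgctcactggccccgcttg

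PSMB8 and PSMB10 each held 1 match to the letters that interferon regulatory factors bind, TTCGCTTTC across the start of PSMB8 and its reverse complement GAAAGCGAA 21 bp before the start of PSMB10. PSMB9 held none of these exact letters in this window. PSMB8 also held the GAS letters TTCTCGGAA 65 bp before its start. The CpG ratio was 0.603 for PSMB8, 0.750 for PSMB9 and 0.329 for PSMB10, with 15, 26 and 7 CpG dinucleotides in the 300 bases.

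PSMB11 and PSMA8, the genes without a TSS peak, are shown in the same way (PSMB11, chr14:23041962-23042261, plus strand; PSMA8, chr18:26133619-26133918, plus strand).
PSMB11: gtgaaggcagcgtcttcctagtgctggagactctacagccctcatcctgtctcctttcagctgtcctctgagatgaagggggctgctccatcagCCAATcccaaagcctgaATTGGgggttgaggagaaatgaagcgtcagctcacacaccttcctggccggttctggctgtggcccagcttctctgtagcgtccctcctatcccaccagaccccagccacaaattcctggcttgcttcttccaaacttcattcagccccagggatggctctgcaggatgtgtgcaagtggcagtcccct
PSMA8: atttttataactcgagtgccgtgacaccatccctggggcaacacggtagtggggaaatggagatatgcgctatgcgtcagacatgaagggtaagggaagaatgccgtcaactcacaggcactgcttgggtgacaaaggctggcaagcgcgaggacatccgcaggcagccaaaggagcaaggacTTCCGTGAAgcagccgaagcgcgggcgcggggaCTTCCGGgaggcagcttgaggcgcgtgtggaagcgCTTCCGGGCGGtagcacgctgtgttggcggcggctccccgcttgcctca

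PSMB11, a gene with a single annotated TSS on chromosome 14 that lies close to PSMB5, had only 4 CpG dinucleotides and a CpG ratio of 0.169. Its nearest peak reached 29 stacked reads in replicate 1 and 38 in replicate 2. PSMA8 had 25 CpG dinucleotides and a ratio of 0.922, above the median of the standard genes, 2 matches to the ETS letters and 1 to the GC box, which overlaps 1 of the ETS matches. Its nearest peak was 14480 bp from a TSS in replicate 1 and 14497 bp in replicate 2, with 18 and 22 stacked reads. The subunit that PSMA8 replaces, PSMA7, had a fold enrichment of 55.5 and 58.8, from 240 and 265 stacked reads, in a peak within 1 kb of the start of SS18L1. So the pair without a peak included a CpG-rich and a CpG-poor promoter. No peak in a list does not show closed chromatin, only that no pileup at these starts passed the threshold of the peak caller.

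In the 34 standard genes the strongest peak covered the canonical TSS in 32 in both replicates, with PSMB1 and PSMC2 as the exceptions, beside 68.1% of all genes with a TSS peak in replicate 1 and 68.0% in replicate 2. It reached a median of 528.5 bp upstream and 415 bp downstream in replicate 1, and 540 and 417 bp in replicate 2. The median width was 1007 bp in replicate 1 and 1002.5 bp in replicate 2, where all genes had 1029 and 1035 bp. In 9 of the 34 the strongest peak also lay within 1 kb of a start of another coding gene, as did that of all 3 immune genes and of 3975 of the 15890 genes that had a TSS peak in each replicate. Counting only the peak over the canonical TSS, the standard median was 57.0, beside 53.8 for all genes, and the immune genes had means of 166.4 (PSMB8), 91.0 (PSMB9) and 93.8 (PSMB10, from values of 18.6 and 168.9). By this measure PSMB8 and PSMB9 were above the standard median in both replicates. PSMB10 was below it in replicate 1, and the merged peak of replicate 2 gives no value for its canonical TSS alone.

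Other genes that belong to or act with the proteasome, whose symbols the rule does not take, were looked at beside its members. The 20 were 6 assembly factors, 5 activators or inhibitors, 5 associated proteins and 4 that govern transcription of the subunits. All 20 had a peak over the canonical TSS in both replicates, beside 65.0% of all protein-coding genes. The median percentile of the 20 was 56.9. The assembly factors, such as POMP, which matures the core particle, had a median percentile of 54.4, and the activators or inhibitors 59.5. UCHL5, a deubiquitinase of the regulatory particle, was the strongest with a fold enrichment of 218.1 in replicate 1 and 211.4 in replicate 2. NFE2L1, the transcription factor that restores proteasome genes when the proteasome is inhibited, had 185.0 and 176.2, while its relative NFE2L2 had 49.2 and 52.8. The interferon-inducible activator genes PSME1 and PSME2 had 45.8 and 52.4, and 76.2 and 73.6. Of these 20 genes, 2 (UCHL5 and NFE2L1) lay above percentile 90 in the mean of both replicates, a share near the 9.14% of all genes at or above it in both.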

How the data were processed

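The data were 2 lists of ATAC-seq peaks, 1 for each biological replicate of CAMA-1. Per the labels, reads had been trimmed with Trim Galore 0.6.5, aligned to hg38 with Bowtie2 2.3.5.1 and passed to MACS2 2.2.6. The settings of MACS2, the handling of duplicate reads and Tn5 offsets, and any excluded regions are not given in the sources used here. The authors deposited 4 values per peak: a score, equal to 10 times the −log10 q in 100% of peaks, a fold enrichment over background (a ratio), and a −log10 p and a −log10 q. The lists hold no read counts, no summits and no library totals, and the total reads sequenced, which the study gives, were not used here. Depth bears on which weak peaks were listed. The paper reports copy-number aberrations in CAMA-1, and the fold enrichment used here has no correction for copy number.

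Fold enrichment was read as (height + 1) / (background + 1). The step between deposited values (0.230 and 0.221) gave backgrounds of 3.35 and 3.52 and the height of each peak. The −log10 p recomputed from height and background by a Poisson model came within 0.01 of the deposited value in 100% of the 226689 and 239018 peaks checked. Starts of all annotated transcripts came from GENCODE 44 and promoters from RefSeq on GRCh38.p14. Genes on the mitochondrial genome were left out. Intervals of heights are exact Poisson intervals, and amplified reads are not independent molecules. With a single condition there was no comparison between groups and no test. Identity between subunit proteins, which had been planned, was not computed. Named genes were the 5 special subunits, PSMB5, PSMB6, PSMB7 and PSMA7, the 5 highest and the 5 lowest standard genes by mean percentile, and the 3 with the largest ratios between replicates. Other standard genes (PSMA3, PSMB1, PSMB3, PSMC1, PSMC2, PSMD1, PSMD9, PSMD10 and PSMD11, and those listed for a motif) were named after their values were seen. The members, the lists and the motifs were chosen with earlier results of these data known. The result for 1 blood marker is not reported here. Scripts were tested on simulated data and used Python 3.11.15, numpy 2.4.6, pandas 2.3.3, scipy 1.17.1 and matplotlib 3.10.9.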

Additional observations from a re-analysis of the deposited data

How the results depend on the processing

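Of the 73 alternatives to 6 results, 31 were classed as moved and 42 as the same, which includes the counts of 32 and 30 below. The 42 also include the median percentiles ranked by −log10 q, 58.3 for the standard and 97.6 for the immune genes. These could not differ from the main setting, since −log10 q and fold enrichment both follow from the height of a peak. Of 475 values for single genes, 214 were classed as moved. That count does not measure the size of a change, since genes with close replicates were classed as moved at very small differences. PSMA5 was so classed at percentile 99.997 without replicate 1, where the main setting also gave 99.997. PSMC4 was so classed at 96.39 within 100 bp, beside 96.44 in the main setting. Counts, medians and shares have no sign, so none of the 6 results could reverse. The comparison with all genes did change: the standard median percentile, 58.3 in the main setting, was 44.4 by peak width, below the middle of all genes with a TSS peak. The count of standard genes with a TSS peak was 34 of 34 in most alternatives, 32 of 34 with the most upstream TSS alone and 30 of 34 with the 50000 strongest peaks. Without the 3 chaperones it was 31 of the 31 left. Without genes whose peak lies within 1 kb of another coding gene's start it was 25 of the 25 left. That last choice took out the 3 immune genes and left PSMB11 and PSMA8, so 0 of 2 had a peak. PSMB8 and PSMB9 share 1 peak and were taken out as each other's neighbour. The median fold enrichment of standard genes (60.7) was 57.0 with TSSs within 100 bp, over the narrow window that ends 25 bp after a TSS and with the peak over the canonical TSS, 69.5 with the 50000 strongest peaks, 64.2 without shared peaks and 57.1 without chaperones. Their median percentile (58.3) was 53.6 within 100 bp, 53.5 over the window, 61.7 with the most upstream TSS, 56.9 at a −log10 q of at least 10, 56.0 with the 50000 strongest peaks, 44.4 by peak width, 61.6 without shared peaks, 55.1 without chaperones, 61.1 with the canonical TSS alone and 54.0 with the peak over it. The median percentile of the immune genes (97.6, where PSMB8 and PSMB9 count the same peak) was 96.9 with the 50000 strongest peaks, 82.2 by width and 79.6 with the peak over the canonical TSS. The share of all genes (79.3%) was 73.2% within 100 bp, 85.0% within 3 kb, 72.8% over the window, 71.7% with the most upstream TSS, 76.9% at the stricter q, 61.4% with the 50000 strongest peaks, 73.5% with the canonical TSS alone and 65.0% with the peak over it. With either replicate left out, the median fold enrichment was 60.8 to 61.2, and the share 80.1% to 80.6%. With fold enrichment over the chromosome median, the median percentile was 59.1 for the standard and 97.8 for the immune genes. Single genes moved more: PSMD10 from 87.2 to 96.9, PSMA1 from 40.2 to 50.8 and PSMB10 from 97.1 to 93.8. Both measures at the canonical TSS were chosen after seeing the data. Apart from the shared peaks, the cause of these moves was not tested. No paired analysis was possible because there is only 1 group, so no pair of samples could be set against each other. The peak lists give no depth, so what a deeper library would add at PSMB11 and PSMA8 cannot be read from them.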

Other observations

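Beyond the starts, 49 further peaks in replicate 1 and 48 in replicate 2 overlapped the 34 standard genes, more than 1 kb from their own starts. Of the 49, 42 were found again in replicate 2, and 13 of the 34 genes had none in either replicate. The distance of these peaks to starts of other genes is not given here, so some may be at the start of a neighbour. The strongest overlapped the 3′ end of PSMA5 but lay mostly beyond the gene, with a fold enrichment of 132.3 in replicate 1 and 130.0 in replicate 2. In PSMD11, 3 such peaks were listed in replicate 1 and 2 in replicate 2, with a highest value of 76.6 and 11.3. Whether a peak merged, or crossed the edge of the gene or the 1 kb limit, was not tested. The highest values were 49.9 and 46.4 in PSMD5, and 43.7 and 41.8 in PSMC1, an ATPase gene. PSMA8, without a peak at its start, had 2 weak peaks inside the gene in each replicate, both found again, of at most 8.05 and 9.95.

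Processed pseudogenes, which are copies of the spliced transcript set elsewhere in the genome without the promoter of the parent, were also looked up. Of 35 such copies of proteasome genes, 7 had a peak within 1 kb of the start in both replicates and 9 in at least 1, where 14.6% and 18.4% of all 10660 processed pseudogenes had one. The strongest, PSMD10P2, had 60.1 and 61.0, and the others had at most 19.5.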
